A study of Bos taurus with 6 samples.

Results

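Fragments of housekeeping RNAs were followed in the small RNA of cultured bovine fat cells: pieces of ribosomal RNA (rRNA), transfer RNA (tRNA), small nuclear RNA (snRNA), Y RNA, vault RNA, 7SK, the RNA of the signal recognition particle (SRP), RNase P, RNase MRP and telomerase RNA. They were taken from the deposited table by annotation alone, as every row typed rRNA, tRNA or snRNA and every row of other Rfam small RNAs whose description names one of the remaining RNAs. This took 43 of 2213 rows: 10 of rRNA, 2 of tRNA, 12 of snRNA and 19 of other small RNAs. Each row is 1 family of the Rfam database, which groups RNAs by similarity to a model, so a row can pool the reads of many gene copies. For example, RefSeq lists 2325 tRNA genes and 975 snRNA genes in assembly ARS-UCD2.0, against 2 and 12 rows here. Of the 43 families, 23 are models that cover vertebrates and 20 are models of other organisms, such as bacterial rRNA or the nematode SmY RNA, and these are described apart.

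The study compared 3 libraries of preadipocytes, the committed precursors of fat cells, with 3 of adipocytes, all from Holstein cattle at passage 4 to 6. The labels give F12/DMEM medium with 10% fetal bovine serum and 1% antibiotics, and name insulin, dexamethasone, rosiglitazone and IBMX as inducers, in the same words for all 6 samples. The group of a sample was therefore taken from its labelled cell type. Nothing in the labels ties the replicates to separate animals or cultures, so the tests measure the spread between these libraries, which may be technical. RNA of 18 to 30 nt was cut from a gel before adapters were joined, so every value below is a number of short fragments and not of intact housekeeping RNA. In these bulk libraries a larger number of fragments can come from more cells, more RNA per cell or more cleavage, and these cannot be told apart. Levels below are relative to the other reads of a library, so they also depend on the reads in other rows.

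Housekeeping RNAs run the basic machinery of gene expression. The rRNAs form the ribosome and tRNAs bring it amino acids. U1, U2, U4, U5 and U6 snRNAs form the major spliceosome and U11, U12, U4atac and U6atac the minor one, while U7 snRNA guides the cutting that forms the ends of replication-dependent histone messages. Y RNAs bind the Ro protein, vault RNAs belong to the vault particle, 7SK holds the elongation factor P-TEFb inactive, and SRP RNA helps to bring secreted proteins to the endoplasmic reticulum. RNase P trims the leader of precursor tRNA, RNase MRP cuts precursor rRNA, and telomerase RNA is the template for telomere repeats. All of them can be cut into short pieces that enter small RNA libraries, and Y RNA and tRNA pieces are also well known in serum.

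The table held 19292757 to 25801117 reads per library, and the housekeeping rows 198893 to 496452 of them. Levels are given as RPM, reads in every 1000000 reads of the table, and a row with 0 reads could have stood at up to 0.116 to 0.155 RPM, for counting error only. Reads in the exon, intron, intergenic and repeat rows, which name no gene, took 10.4%, 12.01% and 8.21% of the table in adipocyte replicates 1, 2 and 3 and 18.5%, 18.9% and 5.29% in preadipocyte replicates 1, 2 and 3, so preadipocyte replicate 3 stood apart from the other libraries of its group. The table holds no messenger RNA markers of fat cells such as PPARG or ADIPOQ, and the labelled states were not checked against them here. MicroRNAs enriched in cells that the cultures could hold were summed by list, in every 1000000 microRNA reads. The 5 mesenchymal microRNAs gave 695065 to 782449 in adipocytes and 811619 to 836036 in preadipocytes, nearly all of it miR-21, while miR-199a lay the other way, at 12236 to 15592 and 2236 to 3306. The muscle list of 4 gave 21.1 to 34.6 and 17.8 to 38.8, the endothelial miR-126 44.9 to 91.1 and 95.4 to 334, and the blood list of 4 0.728 to 1.46 and 1.39 to 4.13. Of the neural list of miR-9 and miR-124, no row matched miR-124. The liver miR-122 was at most 0.138, the neural miR-9 at 4.29 to 7.52, and the blood miR-144 at 0 in adipocyte replicate 1 and every preadipocyte library. Their part in the differences below was not tested.

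Housekeeping fragments made up 1.22% ± 0.211 of the table reads in adipocytes and 1.77% ± 0.882 in preadipocytes (SD, n = 3 each). The share was 1.09%, 1.12% and 1.47% in adipocyte replicates 1, 2 and 3 and 2.13%, 2.42% and 0.771% in preadipocyte replicates 1, 2 and 3. The lowest and the highest library were thus both preadipocytes, the groups overlapped, and the exact two-sided permutation p was 0.4, where 0.1 is the smallest that 3 libraries against 3 can give. Over all 6 libraries, 5.8S rRNA held 31.2% of the housekeeping reads, small subunit (SSU) rRNA 29.9%, Y RNA 20.8%, tRNA 10.2%, large subunit (LSU) rRNA 4.49%, vault RNA 1.29% and U1 snRNA 0.634%. These are shares of reads and are not corrected for the lengths of the RNAs. Among 13 such shares of table reads (all rows together and 12 classes), U7 and SRP were higher in all 3 adipocyte libraries than in any preadipocyte library and RNase P was lower. Each of these had an exact permutation p of 0.1 and a Benjamini-Hochberg (BH) adjusted p of 0.433, so no class passed. SRP was apart by little, at 3.42 against 3.39 RPM for the nearest libraries, and its exact permutation p was 0.6 with the genome-feature rows left out of the total, 0.4 against microRNA reads and 0.2 with the totals implied by TPM. Over all rows tested below, the groups did not overlap in share of table reads for 28.5% that were higher and 9.28% that were lower.

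**Figure D1:**
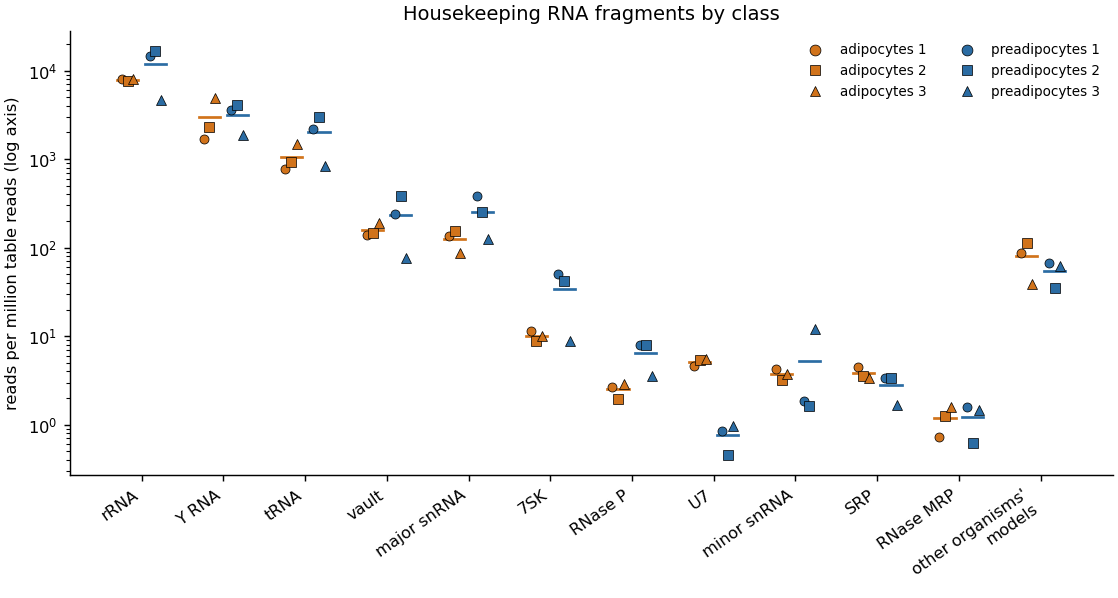
Level in RPM of table reads (log axis) in each class of housekeeping fragments, with 1 point per library (adipocytes orange, preadipocytes blue, symbols for replicates 1 to 3) and a bar at each group mean. The groups lie apart for U7 (4.66 to 5.48 against 0.461 to 0.969) and overlap for rRNA, tRNA and Y RNA, with preadipocyte replicate 3 as the lowest library for rRNA.

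Row by row, the fragments of U7 rose in adipocytes, and U7 was the only housekeeping row to pass edgeR's quasi-likelihood test across the whole table (BH-adjusted p = 0.0402). The low-count filter left 28 of the 43 rows, 20 of them vertebrate models, among 948 rows tested. Of these 28, 1 was called higher and 0 lower, while over all rows tested 2.64% were called higher and 0.844% lower (25 and 8 rows, or 55 and 7 with library totals in place of TMM factors). At an unadjusted p under 0.05, 1 was higher and 9 lower, against 156 and 116 of all 948. Of the 9, 6 were vertebrate models and 3 were models of other organisms. DESeq2 called U7 higher and 8 lower (5.8S, LSU, U6, 7SK, RNase P and the bacterial SSU, bacterial LSU and archaeal LSU models), on a background of 12% higher and 8.89% lower over the rows it tested. The estimate was negative for 23 of the 28 and their median log2 difference of adipocytes over preadipocytes was -1.02, against a median of -0.05 over all rows. On the scale of the test, RPM after edgeR's TMM factors, the groups did not overlap for 1 row that was higher and 6 that were lower, on a background of 21.5% higher and 14.8% lower over all rows tested. Of the 6, 4 were among the 8 models of other organisms tested. The other 2 were among the 20 vertebrate models, or 10% of them, which is below the background.

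**Figure D2:**
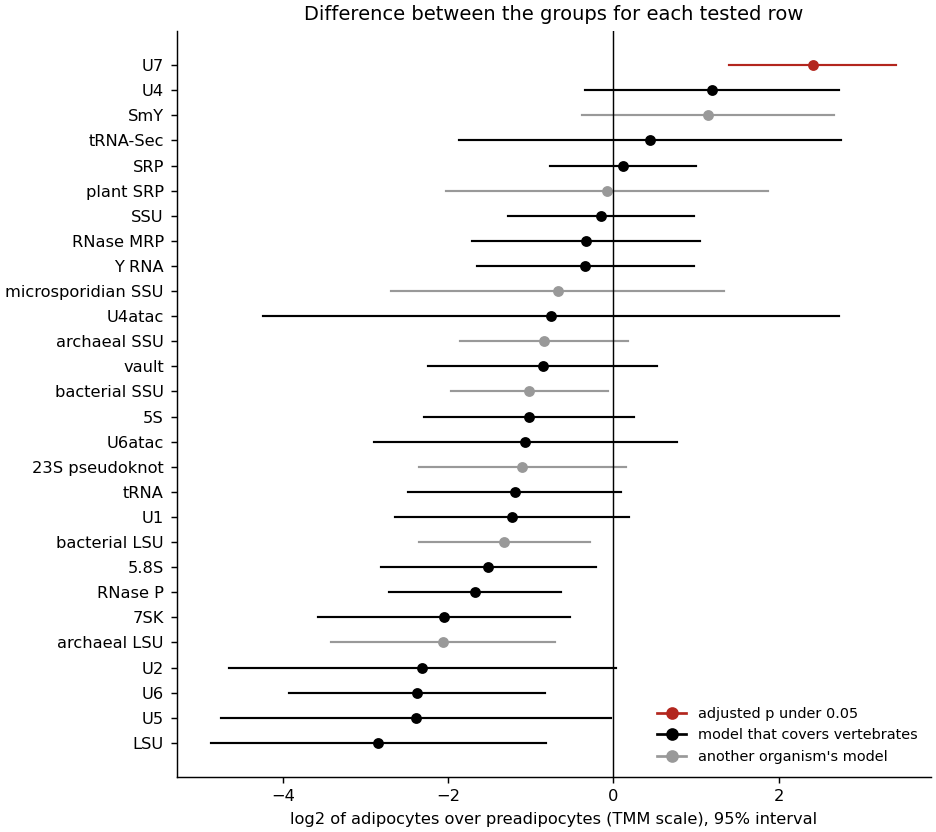
Log2 of adipocytes over preadipocytes on the TMM scale (points) with 95% intervals (lines) for the 28 housekeeping rows tested, with models of other organisms in grey. U7 at 2.41, in red, is the only row past an adjusted p of 0.05, and 23 of the 28 points lie below 0.

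U7 snRNA, the histone message processing RNA (Rfam family RF00066), was read 90, 106 and 130 times in adipocyte replicates 1, 2 and 3 and 20, 9 and 25 times in the corresponding preadipocyte replicates. In RPM these were 4.66, 5.32 and 5.48 against 0.857, 0.461 and 0.969, or 5.16 ± 0.433 and 0.762 ± 0.267 (SD, n = 3 each). The adipocyte libraries lay close together and all above every preadipocyte library. The value of preadipocyte replicate 2, had an exact 95% binomial interval of 0.211 to 0.876 RPM, the highest preadipocyte value, that of replicate 3, one of 0.627 to 1.43, and the lowest adipocyte value, that of replicate 1, one of 3.75 to 5.73. On the TMM scale of the test, where the group means were 5.29 and 0.983, the log2 difference was 2.41 (SE 0.42, 95% interval 1.40 to 3.42). This is a 5.33-fold higher level in adipocytes on that scale.

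As a share of the reads in the vertebrate snRNA rows, U7 took 3.23%, 3.26% and 5.74% in the adipocyte libraries and 0.223%, 0.18% and 0.692% in the preadipocyte libraries (exact permutation p = 0.1, BH-adjusted p = 0.325 over 26 shares of this kind). Here and below, percents of snRNA reads leave out the models of other organisms, such as SmY with 198 to 1955 reads per library. This share of U7 does not depend on reads outside the vertebrate snRNA rows. The call across the table was lost (edgeR BH-adjusted p = 0.0930 to 0.208) without any 1 of adipocyte replicates 1, 2 or 3 or preadipocyte replicates 1 or 2, and was kept without preadipocyte replicate 3 (2.69, edgeR BH-adjusted p = 0.0148). It was also lost without the low-count filter (edgeR BH-adjusted p = 0.0704) and with replicate numbers as a block (0.193), while the log2 difference stayed between 2.17 and 2.69 in all 15 alternatives.

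The 5 RNAs of the major spliceosome did not pass the test, and U4 had an estimate of the opposite sign to the others. U6, which forms the catalytic centre with U2, had 373, 589 and 352 reads in adipocytes and 2482, 2519 and 599 in preadipocytes. In RPM U6 stood at 19.3, 29.6 and 14.8 against 106, 129 and 23.2, so preadipocyte replicates 1 and 2 were high and replicate 3 lay within the adipocyte range. On the TMM scale of the test the groups did not overlap, at 17.8, 28.0 and 17.7 against 133.5, 165.2 and 30.7. Its log2 difference was -2.37 (SE 0.65, edgeR BH-adjusted p = 0.0811).

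U2, which pairs with the branch point, stood at 12.3, 12.2 and 4.85 RPM in adipocytes and at 39.3, 69.7 and 3.14 RPM in preadipocytes, with replicate 3 the lowest library of each group. Its log2 difference was -2.31 (SE 0.98, edgeR BH-adjusted p = 0.176), or -1.48 without preadipocyte replicate 2. U5, which holds the exons together, was rare, with 17, 12 and 3 reads against 78, 55 and 7 (log2 difference -2.39, SE 0.99, edgeR BH-adjusted p = 0.171). U1, which binds the start of the intron, was at 60.8, 69.6 and 60.0 RPM in adipocytes and 226, 43.6 and 87.4 in preadipocytes. The adipocyte libraries were alike while the preadipocyte libraries spread on both sides of them, and the log2 difference of U1 was -1.23 (SE 0.59, edgeR BH-adjusted p = 0.224), or -0.52 without preadipocyte replicate 1.

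U4, the partner that keeps U6 inactive until the spliceosome is activated, had 811, 851 and 153 reads in adipocytes and 179, 172 and 335 in preadipocytes. Adipocyte replicates 1 and 2, at 42.0 and 42.7 RPM, stood above the other libraries, while adipocyte replicate 3, at 6.45, was the lowest of the 6. The log2 difference was 1.19 (SE 0.64, 95% interval -0.35 to 2.73, edgeR BH-adjusted p = 0.269). The ratio of U4 to U6 reads within a library, looked at after the values were seen, was 2.17, 1.44 and 0.435 in adipocytes and 0.0721, 0.0683 and 0.559 in preadipocytes. Adipocyte replicate 3 thus lay below preadipocyte replicate 3 in this ratio.

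**Figure D3:**
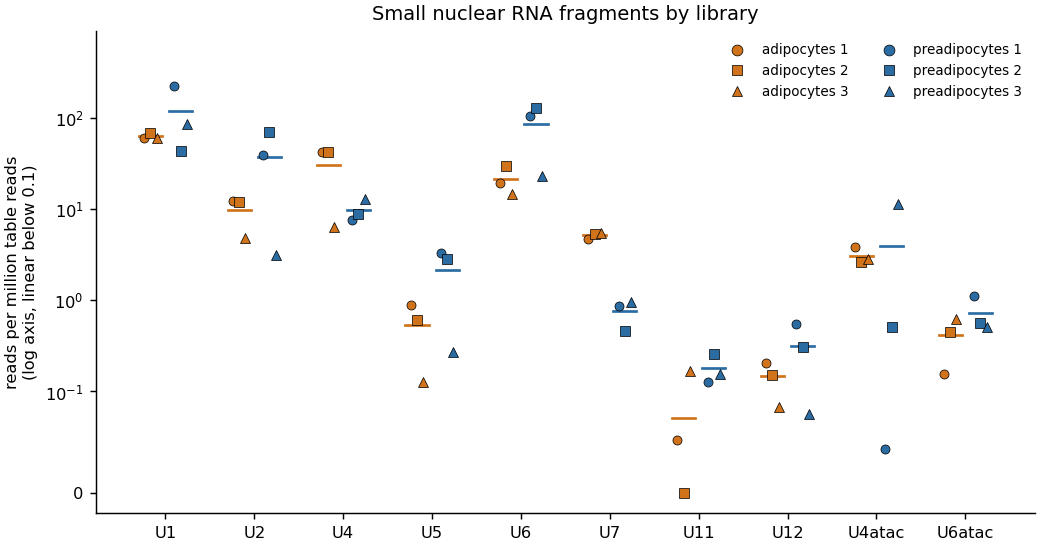
Level in RPM of table reads (log axis, linear below 0.1) of each snRNA family, with 1 point per library (adipocytes orange, preadipocytes blue) and a bar at each group mean. Only U7 has every adipocyte library above every preadipocyte library, and U4atac spans 0.0429 to 11.4 among the preadipocytes.

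Of the minor spliceosome, which removes a small class of introns, U4atac varied widely between libraries. It had 74, 52 and 67 reads in adipocytes and 1, 10 and 293 in preadipocytes, so preadipocyte replicate 3 was the highest library and preadipocyte replicate 1 the lowest. Its log2 difference was -0.75 with a 95% interval of -4.24 to 2.74 (edgeR BH-adjusted p = 0.762), and without preadipocyte replicate 3 it turned to 3.23 and passed (edgeR BH-adjusted p = 0.0434). U6atac had 3, 9 and 15 reads against 26, 11 and 13 (log2 difference -1.07, edgeR BH-adjusted p = 0.4002, or -0.68 and -1.65 without adipocyte replicate 1 or 3). U11 and U12 fell below the filter, with 0 to 5 and 2 to 13 reads per library, and a difference was not detectable at this depth.

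Ribosomal fragments took 0.797%, 0.753% and 0.794% of the table in adipocytes and 1.47%, 1.65% and 0.47% in preadipocytes, in the 4 vertebrate rows together. The adipocyte libraries agreed closely and the preadipocyte libraries lay on both sides of them (exact permutation p = 0.4). The reads of the ribosome's catalytic large subunit, LSU rRNA (RF02543), had the largest ratio of highest to lowest level of the 4 rows, with 3550, 3186 and 5791 reads in adipocytes and 39104, 31915 and 3964 in preadipocytes. In RPM LSU stood at 184, 160 and 244 against 1676, 1636 and 154. Preadipocyte replicates 1 and 2 were far above all others, replicate 3 was the lowest of all, and the log2 difference of -2.85 (SE 0.85) did not pass (edgeR BH-adjusted p = 0.0970).

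The 5.8S rRNA, which pairs with LSU rRNA in the large subunit, stood at 2647, 2113 and 3706 RPM in adipocytes and 5899, 11058 and 2838 in preadipocytes (log2 difference -1.52, SE 0.54, edgeR BH-adjusted p = 0.134, or -0.91 without preadipocyte replicate 2). Again replicate 3 was the preadipocyte library within the adipocyte range. SSU rRNA, the decoding subunit's RNA, was at 5140, 5258 and 3987 RPM in adipocytes and at 7165, 3769 and 1707 RPM in preadipocytes, whose range took in all 3 adipocyte libraries. Its log2 difference was -0.15 (95% interval -1.28 to 0.98, edgeR BH-adjusted p = 0.853), and it was 0.07 with library totals alone. The 5S rRNA had only 46 to 161 reads in adipocytes and 130 to 194 in preadipocytes (log2 difference -1.02, edgeR BH-adjusted p = 0.253, or -1.69 without adipocyte replicate 3).

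In the makeup of the ribosomal fragments, the groups lay apart for SSU and LSU and overlapped for 5.8S and 5S. SSU took 64.5%, 69.8% and 50.2% of the rRNA reads in adipocytes and 48.6%, 22.9% and 36.3% in preadipocytes, and LSU took 2.31%, 2.12% and 3.07% against 11.4%, 9.93% and 3.27%. For both, all libraries of one group lay on one side of all libraries of the other (exact permutation p = 0.1, BH-adjusted p = 0.325 over 26 shares), though adipocyte replicate 3 and preadipocyte replicate 1 were close for SSU and the replicates 3 of both groups close for LSU. The share of 5.8S was 33.2%, 28.0% and 46.6% against 40.0%, 67.1% and 60.3%, with overlap (exact permutation p = 0.2, BH-adjusted p = 0.473). Among the 26 shares, the groups also lay apart for U7 of snRNA reads. They did so too for tRNA, U7, 7SK, SRP and RNase P as shares of housekeeping reads, and overlapped for the rest. With no adjusted p below 0.05 possible in 3 libraries against 3, these shares are given as values.

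**Figure D4:**
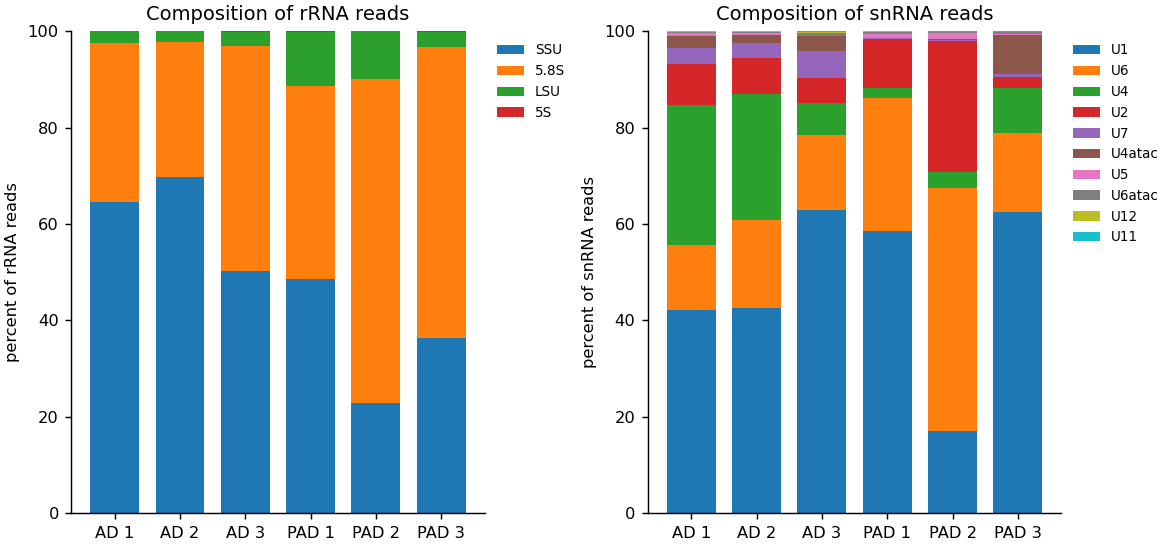
Stacked bars of the percent of rRNA reads (left) and snRNA reads (right) in each family, for adipocyte (AD) and preadipocyte (PAD) replicates 1 to 3. Only the vertebrate models are counted. SSU makes up 50.2% to 69.8% of rRNA reads in adipocytes and 22.9% to 48.6% in preadipocytes, and U4 26.2% to 29.1% of snRNA reads in adipocyte replicates 1 and 2 against at most 9.27% elsewhere.

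tRNA fragments, all isotypes in 1 row (RF00005), had 15078, 18553 and 34876 reads in adipocytes and 51602, 57750 and 21843 in preadipocytes. In RPM both tRNA rows together stood at 782, 932 and 1473 against 2212, 2961 and 847, with preadipocyte replicate 3 inside the adipocyte range (exact permutation p = 0.3). The log2 difference of the tRNA row was -1.20 (SE 0.54, 95% interval -2.49 to 0.10, edgeR BH-adjusted p = 0.203), or -0.80 without preadipocyte replicate 2. Among housekeeping reads alone, tRNA took 7.2%, 8.32% and 10.0% in adipocytes and 10.4%, 12.2% and 10.99% in preadipocytes, which did not overlap (exact permutation p = 0.1, BH-adjusted p = 0.325). Selenocysteine tRNA, which decodes a stop codon in selenoprotein messages, had 3, 14 and 48 reads against 21, 11 and 10, and its difference of 0.44 (95% interval -1.87 to 2.75) rests on adipocyte replicate 3, without which it was -0.92.

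Y RNA fragments stood at 1709, 2299 and 4919 RPM in adipocytes and 3560, 4086 and 1862 in preadipocytes. The highest library was adipocyte replicate 3 and the lowest adipocyte replicate 1, so the adipocyte range took in all 3 preadipocyte libraries, and the log2 difference was -0.34 (95% interval -1.66 to 0.98, edgeR BH-adjusted p = 0.721). It was -1.06 without adipocyte replicate 3 (edgeR BH-adjusted p = 0.228) and between -0.55 and -0.05 without any other single library. In adipocyte replicate 3 Y RNA took 33.5% of the housekeeping reads, against 15.7% to 24.2% in the other 5 libraries. Vault RNA, with 2687, 2955 and 4466 reads against 5582, 7488 and 1998, again had its highest value in preadipocyte replicate 2 and its lowest in preadipocyte replicate 3. Its log2 difference was -0.86 (SE 0.58, edgeR BH-adjusted p = 0.367), or -0.29 without preadipocyte replicate 2.

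7SK, the transcription elongation regulator, stood at 11.6, 8.84 and 10.1 RPM in adipocytes and at 50.3, 42.5 and 8.72 RPM in preadipocytes. Preadipocyte replicates 1 and 2 were high and the other 4 libraries close together, with preadipocyte replicate 3 the lowest. The log2 difference was -2.06 (SE 0.64, edgeR BH-adjusted p = 0.102).

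The RNA of nuclear RNase P was the housekeeping row with the smallest p after U7, at 2.64, 1.96 and 2.91 RPM in adipocytes and 7.93, 7.95 and 3.57 in preadipocytes. All adipocyte libraries lay below all preadipocyte libraries, and the log2 difference of -1.68 (SE 0.43, 95% interval -2.71 to -0.64) missed the threshold (edgeR BH-adjusted p = 0.0808). The related RNase MRP, with 14, 25 and 38 reads against 37, 12 and 38, differed by -0.33 (95% interval -1.72 to 1.05, edgeR BH-adjusted p = 0.739), with -0.73 to -0.08 when 1 library was left out. SRP RNA had 87, 71 and 81 reads against 79, 65 and 43, and differed by 0.12 (95% interval -0.77 to 1.00, edgeR BH-adjusted p = 0.857), which turned to -0.02 with upper-quartile factors. Telomerase RNA gave 1 read in adipocyte replicate 3 and 0 in the other 5 libraries, so no difference was detectable at this depth.

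Rows for models of other organisms held 690 to 2239 reads per library, and 13 of the 20 had a mean of under 10 reads. The rule took some of them by name alone, such as the bacterial GlmY and RsmY RNAs. The largest was SmY, a nematode RNA with a role in splicing, with 1258, 1955 and 423 reads in adipocytes and 544, 198 and 714 in preadipocytes. Like U4 it was highest in adipocyte replicates 1 and 2, with 1.15 to 3.04 SmY reads for each U4 read, and it differed by 1.14 (SE 0.64, edgeR BH-adjusted p = 0.282), or 0.60 without adipocyte replicate 2. Which bovine or other RNA these reads come from is not recorded in the table. Of the rRNA models, the bacterial LSU row had 176, 92 and 163 reads against 416, 159 and 384 (log2 difference -1.32, edgeR BH-adjusted p = 0.114), the bacterial SSU row 185, 105 and 238 against 364, 218 and 357 (-1.02, edgeR BH-adjusted p = 0.156) and the archaeal LSU row 15, 11 and 19 against 91, 44 and 28 (-2.06, edgeR BH-adjusted p = 0.0812).

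The same libraries stood out in many housekeeping rows. Among 20 vertebrate rows with a mean of at least 10 reads, the 2 highest shares of table reads were those of preadipocyte replicates 1 and 2 in 10 rows, and preadipocyte replicate 3 lay below both in 15. The order was not counted over the other rows of the table, so it is not shown to be particular to housekeeping rows. Preadipocyte replicates 1 and 2 were also the libraries with the most reads in the exon, intron, intergenic and repeat rows, at 18.5% and 18.9% of the table against 5.29% to 12.01% in the other 4. With their share as a covariate, a fit added after the values were seen, U7 remained past the threshold (2.23, edgeR BH-adjusted p = 0.0373) and no other housekeeping row passed, on a background of 3.38% called higher and 1.48% lower. In that fit several log2 differences lay nearer 0, with LSU at -1.23, U2 at -0.34, U5 at -0.80, U6 at -1.40, 7SK at -1.05, tRNA at -0.63 and vault RNA at -0.06. Others lay farther from 0 than in the main fit, with SSU at 0.47, SRP at 0.44 and tRNA-Sec at 0.52. The same held for RNase MRP at -0.53 and for the bacterial LSU and SSU models at -1.46 and -1.14. Why the values moved was not tested.

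Leaving out preadipocyte replicate 3 moved the count of called rows more than leaving out any other library. Without it, 11 of the 28 housekeeping rows passed, 2 higher (U7 and U4atac) and 9 lower, on a background of 13.9% higher and 17.6% lower among the 1119 rows then tested. The 9 were LSU (-3.31), 5.8S (-1.81), tRNA (-1.50), U2 (-2.80), U5 (-2.86), U6 (-2.77), 7SK (-2.46), RNase P (-1.91) and archaeal LSU (-2.36), all on the log2 scale. Without any other single library, 0 passed in edgeR's test, with 5 to 13 rows at an unadjusted p under 0.05. Over the whole table, 1 to 4 of 1019 to 1115 rows passed in those fits, with 170 to 235 at an unadjusted p under 0.05.

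**Figure D5:**
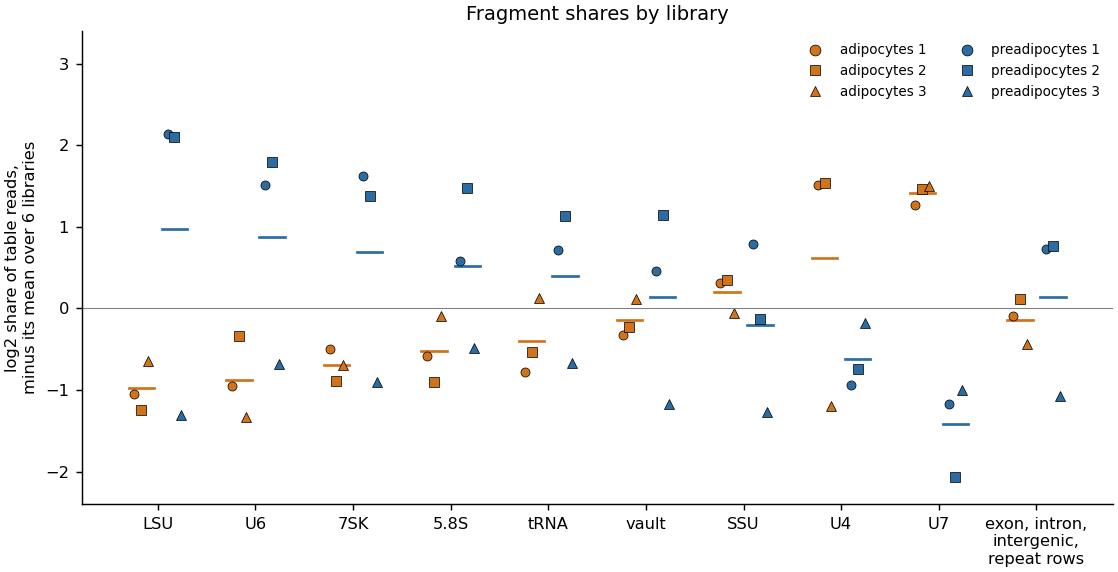
Log2 share of table reads minus its mean over the 6 libraries for 9 housekeeping rows and for the exon, intron, intergenic and repeat rows together, with 1 point per library and a bar at each group mean. Preadipocyte replicates 1 and 2 are the highest libraries for LSU, U6, 7SK, 5.8S, tRNA, vault RNA and the exon to repeat rows, and all preadipocyte libraries lie below all adipocyte libraries for U7.

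Small nucleolar RNAs (snoRNAs) that process rRNA and small Cajal body RNAs that modify snRNAs work on the same molecules, and they were looked at beside them. All 8 rRNA-processing snoRNAs were tested, 0 passed, and all 8 had negative estimates, 5 of them at an unadjusted p under 0.05 in edgeR's test. Their median log2 difference was -1.49, against -0.66 over all 150 snoRNA rows tested and -0.05 over all rows. Negative estimates were common among snoRNAs, at 78.7% of the 150 rows against 51.5% of all 948 rows. In edgeR's test 35 of the 150 were lower at an unadjusted p under 0.05, against 116 of the 948. Of the 8, U13 was near 0, at -0.0082. U3, the most abundant of the 8, had 1314, 1480 and 2249 reads in adipocytes and 7577, 2256 and 3774 in preadipocytes. Its log2 difference was -1.61 (SE 0.48, edgeR BH-adjusted p = 0.0985), and the E3 snoRNA differed by -2.04 (SE 0.48, edgeR BH-adjusted p = 0.0660). Of 17 small Cajal body RNAs, 6 were tested and 0 passed, 3 with positive and 3 with negative estimates. DESeq2 called 4 of these 14 RNAs, all lower, against 8.89% called lower over all rows it tested.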

How the data were processed

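Small RNA libraries of 3 adipocyte and 3 preadipocyte samples were used, grouped by the cell type in the labels. The submitters' processing notes name Bowtie2 without a version. Genome build, Rfam release and the handling of reads with several matches are not given in the sources used here. Per the file headers, the authors deposited counts and TPM values per row and library. The deposited counts are whole, unnormalized reads. The deposited TPM values are counts over 1 total per library and served only to recover that total. The members and lists were chosen with earlier results of these data known.

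Shares are of all 2213 rows and were tested by two-sided exact permutation of the libraries (SciPy 1.17.1). Rows were tested on counts with edgeR 4.0.16 in R 4.3.3 (TMM, filterByExpr defaults, group only, two-sided, BH adjustment, threshold 0.05) over all rows but the 4 genome-feature rows, which held 5.29% to 18.9% of reads. Whether Rfam microRNA families repeat reads of microRNA rows is not recorded. The table was read with pandas 2.3.3. DESeq2 1.42.0, other scalings, filters and row sets, a replicate block and leaving out each library were alternatives. Binomial intervals (exact, 95%) and limits of a 0 (3 reads) cover counting error only. The edgeR step was tested on counts simulated from its row means and the trend of dispersion over them, not from each row's own dispersion. No simulated library was set apart, so that test does not cover a library such as preadipocyte replicate 3. Named rows are those past the threshold (mean of 10 reads or more), the 20 most abundant, the 3 most abundant per class and all of classes of up to 5, with others named after their values were seen.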

Additional observations from a re-analysis of the deposited data

How the results depend on the processing

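The count of 1 housekeeping row past the threshold was the same with 6 alternatives, 9 with DESeq2, 0 without the low-count filter, 0 with the replicate block and 0 to 11 when 1 library was left out. The count over all rows, 33 (25 higher, 8 lower), was 62 with library totals alone (55 higher, 7 lower), 195 with DESeq2, 3 without the filter, 52 with the genome-feature rows, 1 with the replicate block and 1 to 352 without 1 library. Library totals alone moved the median of all rows from -0.05 to 0.22, and U7 lay 2.46 and 2.47 above the median on the 2 scales. The 14 related RNAs tested had 0 past the threshold, 4 with DESeq2 and 0 to 5 without 1 library. The cause was not tested.

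The replicate numbers were not found to pair libraries. Deviations from the group means correlated by -0.03, -0.14 and 0.06 between libraries of the same number, and by -0.15 to 0.18 between those of different numbers. The block turned the log2 differences of U4atac (1.52), tRNA-Sec (-0.15) and SSU (0.0633).

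SSU also turned with library totals (0.0749) and the genome-feature covariate (0.47), and SRP with upper-quartile factors (-0.0165). On the log2 scale the shares of minor snRNA (0.16) and RNase MRP (0.00774) turned. Leaving out 1 library gave ranges across 0 for SRP (-0.0862 to 0.27), SSU (-0.48 to 0.36), U4atac (-1.46 to 3.23) and tRNA-Sec (-0.92 to 0.92). The same held for differences in RPM of RNase MRP (-0.335 to 0.204), minor snRNA (-3.24 to 1.98) and vault RNA (-153 to 0.341), and for the percent of table reads in Y RNA (-0.117 to 0.044). It also held for the percent of housekeeping reads in Y RNA (-1.12 to 7.77) and rRNA (-5.41 to 4.26) and of snRNA reads in U1 (-11.3 to 11.4). Depth limits U7, U5, U11, U12, U4atac, U6atac, tRNA-Sec, RNase MRP and telomerase RNA most, with fewer than 30 reads in at least 1 library.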
